A study of Rattus norvegicus with 12 samples.

Results

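Cellular iron handling is described here through 9 genes picked by symbol: the ferritin chains Fth1 and Ftl1, the ferritin receptor Ncoa4, the uptake genes Tfrc, Steap3 and Slc11a2, the exporter Slc40a1, and the iron sensors Aco1 and Ireb2. All 9 were present among the 30562 genes of the table, and all 9 averaged at least 1 TPM over the 12 libraries, a level that 12263 genes reached. Ftl1 and Ncoa4 each belong to 2 loci, and the locus with the highest mean was used for both (ENSRNOG00000064385 for Ftl1 and ENSRNOG00000063221 for Ncoa4). The cells were H9c2, a rat myoblast line from embryonic heart that the submitters class as cardiomyocytes, and polyadenylated RNA was sequenced. There were 4 groups of 3 libraries: methylmalonic acid plus folic acid (MMA+FA), methylmalonic acid on its own (MMA), folic acid on its own (FA), and a control group with neither agent. Methylmalonic acid is an organic acid that accumulates when propionate breakdown fails, while folic acid is a stable synthetic vitamin that cells reduce to active folates. The sources used here give neither dose nor duration of exposure. H9c2 is a single established line, and the labels do not say whether the libraries of a group came from separate cultures, so p-values reflect nothing but the spread among these samples, which may be technical. The unit, TPM, is a length-scaled share of a library's total, so it keeps no sequencing depth, and the depth is unknown.

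Ferritin is a hollow shell of heavy and light chains in which cells store iron. The heavy chain oxidises ferrous iron, and the light chain helps to form the mineral core. When iron is scarce, the iron regulatory proteins bind stem-loops in messenger RNAs, which blocks translation of ferritin and ferroportin and stabilises the transferrin receptor messenger. Ferritin translation can therefore change without any change in its messenger, and protein was not measured here.

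The 2 ferritin chains were far above the other 7 genes per length. Over the 12 libraries Ftl1 averaged 4467 TPM and ranked 20 among all genes, and Fth1 averaged 2686 TPM and ranked 40. Slc11a2 averaged 32.6 TPM, Ncoa4 29.5 TPM, Aco1 28.0 TPM, Slc40a1 27.0 TPM and Steap3 27.0 TPM. Ireb2 followed with 15.4 TPM and Tfrc was lowest with 6.46 TPM. In every group the order Ftl1, Fth1 at the top and Ireb2, Tfrc at the bottom held without overlap of the ranges. Between them the order differed by group. In MMA+FA cells Slc40a1 came last of the middle 5 and its range was below that of its upper neighbour Aco1. In control cells Slc40a1 came after Slc11a2, and Steap3 came last of the 5, below Ncoa4 without overlap. The remaining neighbours among the middle 5 overlapped in all 4 groups, except Slc11a2 and Slc40a1 in control cells.

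**Figure D1:**
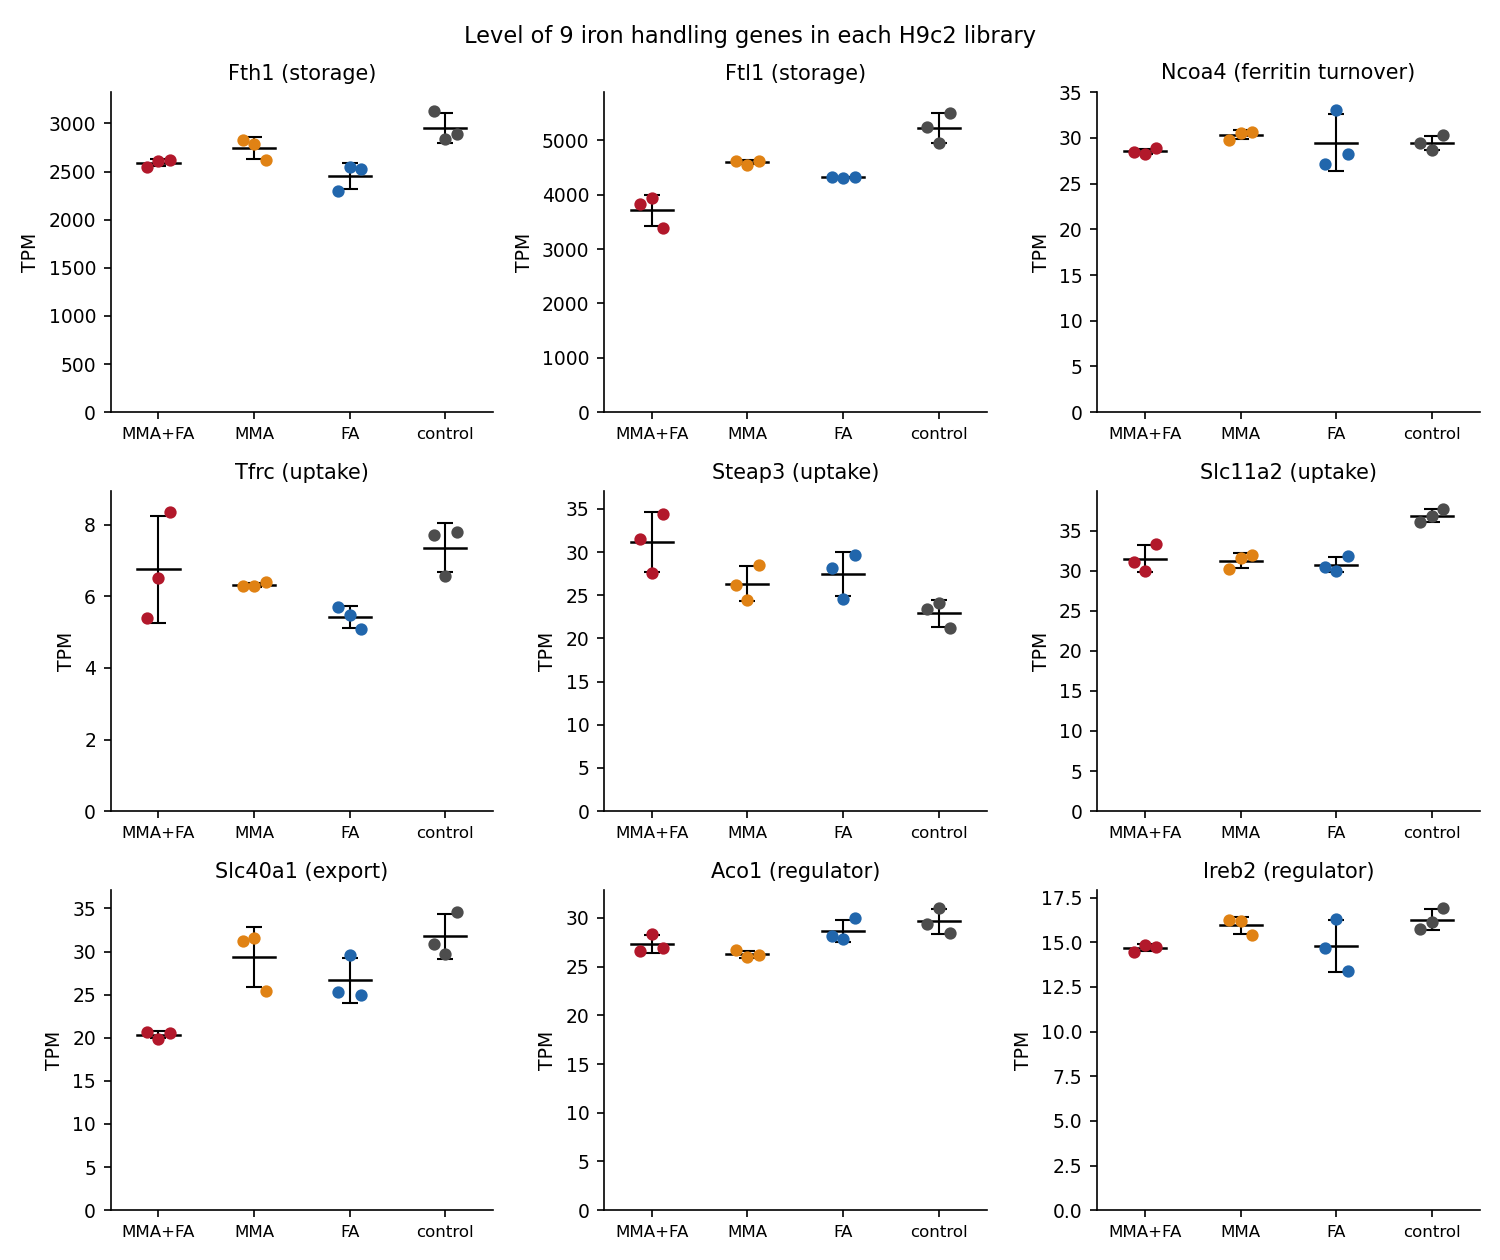
Level of each of the 9 genes in TPM (y axis, from 0) in the 3 libraries of MMA+FA, MMA, FA and control cells (x axis). Points are libraries, and bars are the mean and SD (n = 3). Ftl1 and Slc40a1 were lowest in MMA+FA cells, Steap3 was highest there, and Slc11a2 was highest in control cells.

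With MMA+FA against control, 5 of the 9 genes passed the test: Ftl1, Slc40a1, Fth1 and Slc11a2 fell and Steap3 rose. This compares with 39.3% of all tested genes called in either direction, 32.6% lower and 6.67% higher. In MMA cells against control 3 of 9 fell (Ftl1, Slc11a2 and Aco1), beside 16.5% of all genes called lower and 20.4% called in either direction. In FA cells 3 of 9 fell (Fth1, Ftl1 and Slc11a2), beside 8.7% of all genes called lower and 12.4% in either direction. Calls are genes with an adjusted p under 0.05 in limma, and every fold change below is a difference of log2(TPM + 1), a scale that understates how far low genes moved. The median gene itself moved by -0.12 on this scale with MMA+FA, by -0.07 with MMA and by -0.05 with FA. The median of the 9 genes was -0.14 with MMA+FA, -0.11 with MMA and -0.25 with FA. Median-ratio scaling sets that typical gene to no change, and under it Ftl1, Slc40a1 and Steap3 kept their calls in MMA+FA cells while Fth1 and Slc11a2 lost theirs. Under the scaling 3 of the 9 were called with MMA+FA (29.4% of all genes), 1 with MMA (15.1%) and 3 with FA (9.66%). The scaling also moved the calls among all genes with MMA+FA to 1898 higher and 1710 lower, where the deposited TPM gave 818 higher and 4000 lower. Single libraries moved the FA count most. Without FA replicate 2, 6 of the 9 genes were called, Steap3, Slc40a1 and Ireb2 in addition, beside 2571 of 12263 genes. Without control replicate 3 the call of Fth1 alone was left, beside 214 of 12263 genes. With MMA, leaving out any of its 3 libraries or control replicate 1 left the call of Slc11a2 alone. Those fits called 1173 to 1898 of all genes. Without overlap between libraries, 6 of the 9 genes were lower and 1 was higher with MMA+FA than in control (43.4% and 10.4% of all tested genes). With MMA 5 were lower and 1 higher (34.8% and 10.5% of all genes), and with FA 5 were lower and 1 higher (24.3% and 9.43% of all genes). The 3 comparisons with control share the control libraries, so their values are set side by side and not counted as repeats of each other. In bulk RNA, fewer cells expressing a gene and less RNA per cell cannot be told apart.

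**Figure D2:**
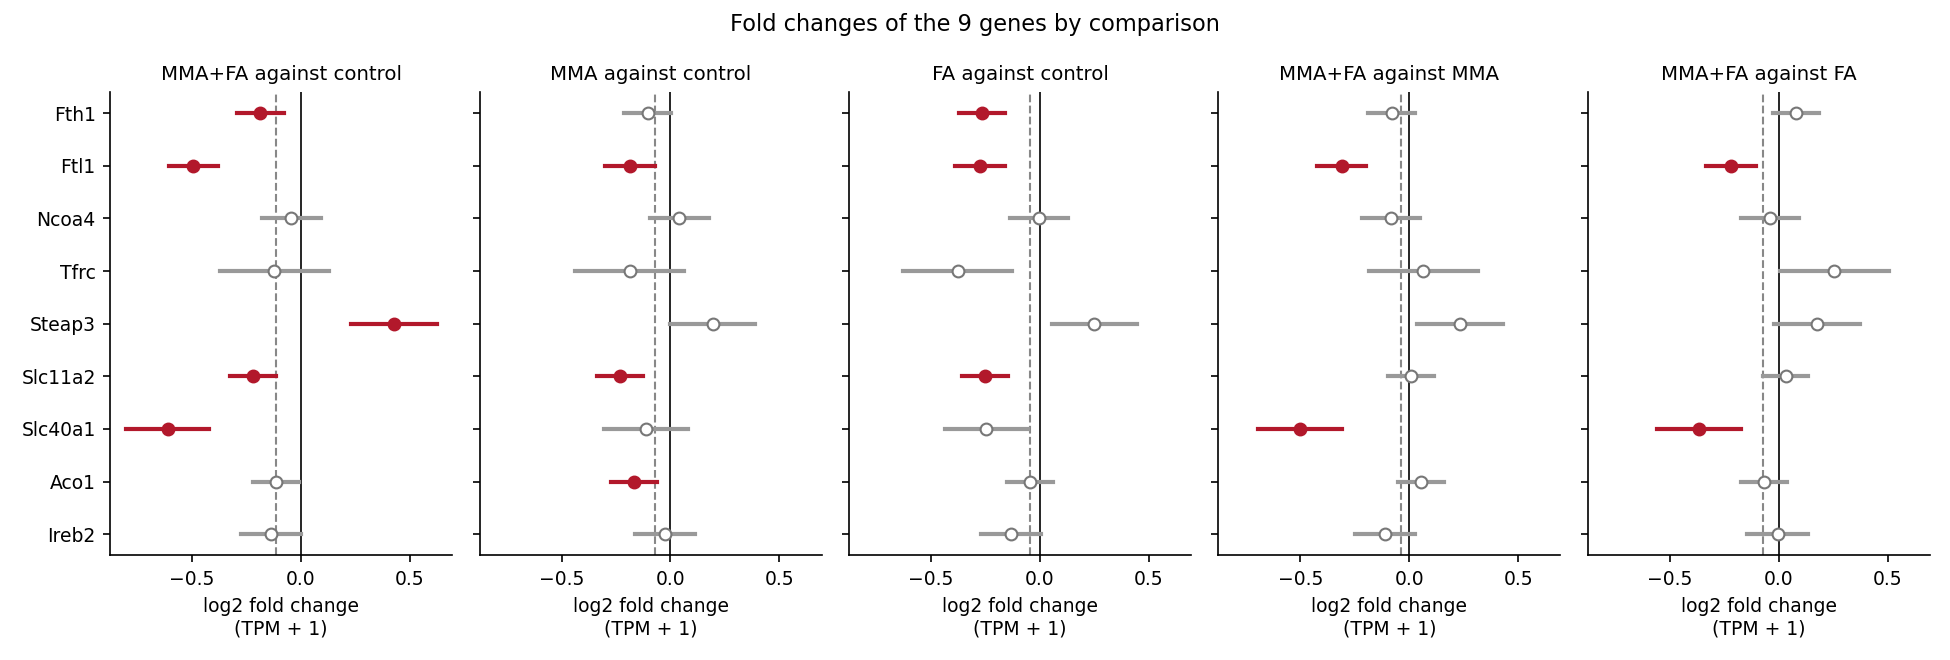
Fold changes of the 9 genes (rows) on the log2(TPM + 1) scale in 5 comparisons (panels), with 95% intervals from limma. Filled points passed an adjusted p of 0.05, solid lines mark 0 and dashed lines the median of all 12263 tested genes. Ftl1 and Slc40a1 have filled points left of 0 in each panel that has MMA+FA first, and Steap3 has one right of 0 in MMA+FA against control.

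Both ferritin chains were lower in MMA+FA cells than in control cells. Ftl1 measured 3824, 3933 and 3392 TPM in the MMA+FA libraries, 4622, 4556 and 4618 TPM in the MMA libraries, and 4324, 4301 and 4334 TPM in the FA libraries, against 5249, 4953 and 5497 TPM in control libraries. The 4 groups did not overlap, with MMA+FA at the bottom, then FA, MMA and control. Ftl1 fell by 0.50 on the log2 scale with MMA+FA (SE 0.05, adjusted p = 6.1e-05), and by 0.37 relative to the typical gene (adjusted p = 0.000843). In FA cells it fell by 0.28 (SE 0.05, adjusted p = 0.0112), and that call was lost without control replicate 3 (adjusted p = 0.0584). In MMA cells it fell by 0.19 (SE 0.05, adjusted p = 0.0275). That call was absent under median-ratio scaling (adjusted p = 0.239) and in 5 of the 6 fits that left out a library.

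Fth1 measured 2547, 2614 and 2617 TPM in MMA+FA libraries, 2828, 2790 and 2616 TPM in MMA libraries, and 2299, 2544 and 2523 TPM in FA libraries, against 3127, 2842 and 2889 TPM in control libraries. Control libraries were above the libraries of each other group, and the lowest values were in FA cells. The heavy chain fell by 0.27 in FA cells (SE 0.05, adjusted p = 0.0106), and this call held under all 15 alternatives that were run. With MMA+FA it fell by 0.19 (SE 0.05, adjusted p = 0.0106), but relative to the typical gene the change was -0.06 (adjusted p = 0.372). The call was also lost without control replicate 1 (adjusted p = 0.0512). With MMA the change was -0.10 (SE 0.05, adjusted p = 0.147).

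The ratio of light to heavy chain messengers was lowest with both agents. It was 1.50, 1.50 and 1.30 in MMA+FA libraries, 1.63, 1.63 and 1.77 in MMA libraries, and 1.88, 1.69 and 1.72 in FA libraries, against 1.68, 1.74 and 1.90 in control libraries. MMA+FA libraries lay below those of every other group, while FA and control libraries overlapped. With 3 against 3 libraries an exact permutation test cannot reach a p below 0.1, so the ratio was not tested. Together the 2 chains made up 0.631 ± 0.0274% of all TPM in MMA+FA cells, 0.734 ± 0.0108% in MMA cells and 0.677 ± 0.0132% in FA cells, against 0.819 ± 0.0338% in control cells (SD, n = 3 each).

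Ferritin genes have many near-identical copies in the rat genome, and reads from one can be assigned to another. The table described 11 loci as ferritin light chain, 8 of them with a mean of at least 1 TPM, and the Ftl1 locus used here held 72.2% to 76.0% of their sum. Its second locus of the same symbol was listed at 0 in all libraries but MMA replicate 2, which had 0.5 TPM. For the heavy chain 9 loci were described, 2 of them with a mean of at least 1 TPM, and Fth1 held 99.7% to 99.8% of their sum. The sources used here do not give how reads were shared among copies, so the level of any single light chain locus is uncertain. The sum of the light chain loci avoids that split. It was 5058 ± 377 TPM in MMA+FA cells, 6128 ± 124 TPM in MMA cells and 5907 ± 143 TPM in FA cells, against 6977 ± 281 TPM in control cells (SD, n = 3 each). With MMA+FA this sum fell by 0.47 on the log2 scale (adjusted p = 7.67e-05).

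The largest copy, Ftl1l2, measured 1055, 1142 and 989 TPM in MMA+FA libraries, 1262, 1158 and 1290 TPM in MMA libraries, and 1284, 1153 and 1290 TPM in FA libraries, against 1414, 1397 and 1420 TPM in control libraries. Its control libraries lay above all others. It fell by 0.41 with MMA+FA (adjusted p = 0.00038) and by 0.19 with MMA (adjusted p = 0.0396). In FA cells its change was -0.18 (adjusted p = 0.0605). The next copy, one of 2 loci named LOC100360087, averaged 211 ± 19.0 TPM in MMA+FA cells, 228 ± 22.5 TPM in MMA cells and 271 ± 46.8 TPM in FA cells, against 258 ± 19.1 TPM in control cells (SD, n = 3 each). Its change of -0.29 with MMA+FA did not pass (adjusted p = 0.0596).

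**Figure D3:**
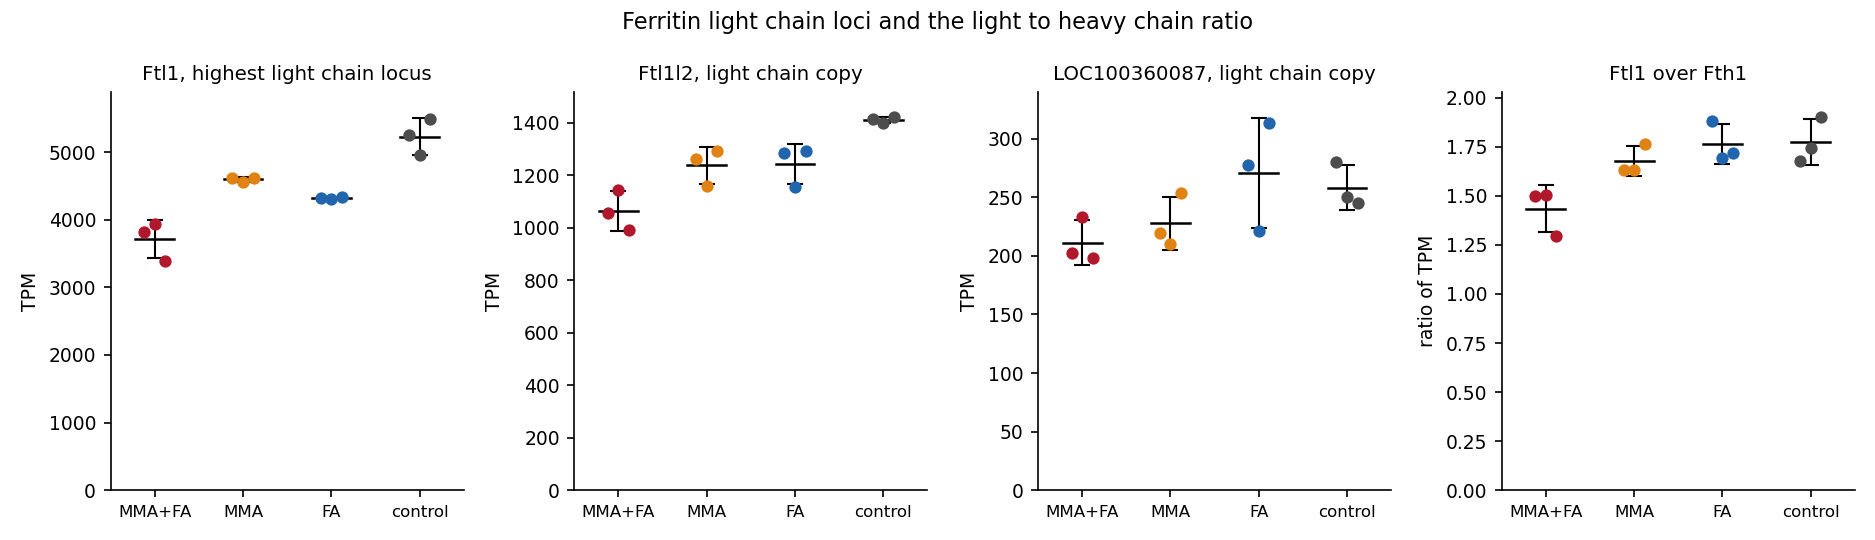
The 3 highest ferritin light chain loci in TPM and the ratio of Ftl1 to Fth1 TPM (y axes, from 0) in MMA+FA, MMA, FA and control libraries (x axis). Points are libraries, and bars are the mean and SD (n = 3). Ftl1 and Ftl1l2 were lowest in MMA+FA cells and highest in control cells, and the ratio averaged 1.43 in MMA+FA cells against 1.77 in control cells.

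Ncoa4, the receptor that carries ferritin to lysosomes for breakdown, did not pass the test in any comparison. It measured 28.5, 28.3 and 28.9 TPM in MMA+FA libraries, 29.8, 30.6 and 30.7 TPM in MMA libraries, and 27.2, 33.0 and 28.3 TPM in FA libraries, against 29.4, 28.7 and 30.3 TPM in control libraries. FA replicate 2 was the highest of the 12 and the groups overlapped, apart from MMA+FA and MMA. The 95% interval of its log2 change reached from -0.18 to 0.09 with MMA+FA, from -0.09 to 0.17 with MMA and from -0.14 to 0.13 with FA. Its second locus had 23.5 ± 0.336 TPM in MMA+FA cells, against 26.0 ± 0.933 TPM in control cells (SD, n = 3 each), and did not pass the test either (adjusted p = 0.0632).

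The uptake genes did not move as one. Steap3, a reductase of endosomes that turns ferric into ferrous iron after transferrin is taken up, measured 31.5, 27.6 and 34.5 TPM in MMA+FA libraries, 26.2, 24.4 and 28.5 TPM in MMA libraries, and 28.1, 24.6 and 29.7 TPM in FA libraries, against 23.5, 24.1 and 21.2 TPM in control libraries. Every library given an agent lay above every control library, and replicate 2 was the lowest of each treated group. It rose by 0.43 with MMA+FA (SE 0.09, adjusted p = 0.00326), a call that held under all 15 alternatives. Its changes of 0.19 with MMA (SE 0.09, adjusted p = 0.143) and 0.25 with FA (SE 0.09, adjusted p = 0.0851) did not pass.

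Slc11a2 encodes the divalent metal transporter that moves ferrous iron out of endosomes. It measured 31.1, 30.0 and 33.4 TPM in MMA+FA libraries, 30.2, 31.6 and 31.9 TPM in MMA libraries, and 30.5, 30.0 and 31.8 TPM in FA libraries, against 36.1, 36.8 and 37.6 TPM in control libraries. The 3 treated groups overlapped with each other and lay below control. Slc11a2 fell by 0.22 with MMA+FA (SE 0.05, adjusted p = 0.00393), by 0.23 with MMA (SE 0.05, adjusted p = 0.00831) and by 0.25 with FA (SE 0.05, adjusted p = 0.0115). Relative to the typical gene the change with MMA+FA was -0.10 (adjusted p = 0.118). In MMA cells it was the single gene of the 9 still called under median-ratio scaling (-0.15, adjusted p = 0.042). The FA call was lost without control replicate 3 (adjusted p = 0.0592).

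Tfrc, the transferrin receptor at the cell surface, had the largest standard error of the 9, which comes from the spread within groups. It measured 5.39, 6.52 and 8.35 TPM in MMA+FA libraries, 6.30, 6.28 and 6.39 TPM in MMA libraries, and 5.71, 5.48 and 5.08 TPM in FA libraries, against 7.71, 6.56 and 7.80 TPM in control libraries. The MMA+FA libraries spanned the whole range of the control libraries and beyond, while the MMA and FA libraries lay below it. None of its changes passed: -0.12 with MMA+FA (SE 0.12, adjusted p = 0.421), -0.19 with MMA (SE 0.12, adjusted p = 0.262) and -0.38 with FA (SE 0.12, adjusted p = 0.051). Single libraries decided the first value, which was 0.01 without MMA+FA replicate 1 and -0.27 without replicate 3 (adjusted p = 0.0488). A pseudocount of 0.1 brought the FA value past the threshold (adjusted p = 0.0484).

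Slc40a1, which encodes ferroportin, the exporter of iron from cells, was lowest in MMA+FA cells. It measured 20.7, 19.9 and 20.5 TPM in MMA+FA libraries, 31.2, 31.6 and 25.4 TPM in MMA libraries, and 25.3, 29.6 and 25.0 TPM in FA libraries, against 30.9, 29.8 and 34.6 TPM in control libraries. The MMA+FA libraries lay close together and below all 9 others. MMA and control overlapped, and FA lay just below control. Slc40a1 fell by 0.61 with MMA+FA (SE 0.09, adjusted p = 0.00038), and by 0.49 relative to the typical gene (adjusted p = 0.00122). This was the largest change among the 9 genes in any of the 5 comparisons between groups. With MMA its difference was -0.11 (SE 0.09, adjusted p = 0.387) and with FA it was -0.25 (SE 0.09, adjusted p = 0.0848), and neither passed.

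The promoters of Slc40a1 and Steap3 are shown because these genes had the most marked changes in opposite directions with MMA+FA. RefSeq gave a promoter for 7 of the 9 genes. The stretches are the 250 bases before the annotated start in the assembly GRCr8, a later build than the mRatBN7.2 of the expression values, printed along the strand of the gene. Slc40a1 lies on the minus strand (chr9:55543461-55543710) and so does Steap3 (chr13:33944357-33944606). Capitals mark matches on either strand to TGCNCNC. This pattern is looser than TGCRCNC, the core of the metal response element, in which R is A or G.
Slc40a1: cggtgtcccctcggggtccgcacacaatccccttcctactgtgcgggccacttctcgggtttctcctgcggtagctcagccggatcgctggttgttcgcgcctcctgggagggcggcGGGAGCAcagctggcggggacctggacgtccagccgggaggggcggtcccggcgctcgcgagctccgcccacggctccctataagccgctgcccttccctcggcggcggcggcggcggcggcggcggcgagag
Steap3: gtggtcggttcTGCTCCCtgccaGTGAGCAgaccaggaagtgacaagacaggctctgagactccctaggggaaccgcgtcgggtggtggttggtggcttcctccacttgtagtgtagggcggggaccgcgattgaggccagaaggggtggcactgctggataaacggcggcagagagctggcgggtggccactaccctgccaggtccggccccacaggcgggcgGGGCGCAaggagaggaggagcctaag
Slc40a1 held 1 match, from 133 to 127 bases before its start, and Steap3 held 3, of which the nearest lay from 26 to 20 bases before the start. Of these, the nearest in Steap3 alone meets the stricter core, since the others have T in place of R. Of all 33469 promoters of this length, 43.4% held at least 1 match, so these letters are common. TGACNNNGC, the core of the antioxidant response element, was in neither, and 10.1% of all promoters held it on either strand. Among the 7 genes it was in the promoter of Ncoa4 alone, as TGACCTGGC from 52 to 44 bases before the start. The E-box CACGTG was in none of the 7 and in 5.59% of all promoters. Tfrc held 3 matches to TGCNCNC, 2 of which overlap each other. The GC content was 74.0% for Slc40a1 and 65.6% for Steap3, with a median of 51.2% over all promoters. A match describes letters and does not show a site in use.

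Aco1 encodes iron regulatory protein 1, which is an aconitase when it holds an iron-sulfur cluster, and measured 26.6, 28.4 and 26.9 TPM in MMA+FA libraries, 26.7, 26.0 and 26.2 TPM in MMA libraries, and 28.2, 27.8 and 30.0 TPM in FA libraries, against 29.4, 31.1 and 28.5 TPM in control libraries. MMA+FA and MMA libraries lay below control, and FA libraries overlapped with it. Aco1 fell by 0.17 with MMA (SE 0.05, adjusted p = 0.0312), a call that was lost in 7 of 15 alternatives, median-ratio scaling among them (adjusted p = 0.252). With MMA+FA its change was -0.11 (SE 0.05, adjusted p = 0.079), and it was 0.01 under median-ratio scaling (adjusted p = 0.949).

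Ireb2 encodes iron regulatory protein 2, which is degraded when iron is plentiful. It measured 14.5, 14.9 and 14.7 TPM in MMA+FA libraries, 16.3, 16.2 and 15.4 TPM in MMA libraries, and 14.7, 16.3 and 13.4 TPM in FA libraries, against 15.8, 16.1 and 16.9 TPM in control libraries. MMA+FA libraries lay below MMA and control libraries, and FA libraries overlapped with all 3 other groups. Its changes of -0.14 with MMA+FA (SE 0.06, adjusted p = 0.104) and -0.13 with FA (SE 0.06, adjusted p = 0.177) did not pass. The FA value passed without FA replicate 2 (adjusted p = 0.0332), the library that was also highest for Ncoa4 and Slc40a1 within its group.

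Setting the combination against each single agent asks what the second agent added. Against MMA alone, 2 of the 9 genes fell in MMA+FA cells, Ftl1 by 0.31 (SE 0.05, adjusted p = 0.00213) and Slc40a1 by 0.50 (SE 0.09, adjusted p = 0.00293), beside 9.53% of all genes called lower and 13.7% in either direction. Both calls held under all 15 alternatives. Without overlap of libraries, 4 of 9 genes were lower in MMA+FA than in MMA cells (Ftl1, Slc40a1, Ncoa4 and Ireb2), beside 22% of all genes. Steap3 had a difference of 0.23 (SE 0.09, adjusted p = 0.112) and Fth1 of -0.08 (SE 0.05, adjusted p = 0.308). Against FA alone the same 2 genes fell, Ftl1 by 0.22 (SE 0.05, adjusted p = 0.0247) and Slc40a1 by 0.37 (SE 0.09, adjusted p = 0.0256), beside 8.9% of all genes called lower and 10.5% in either direction. Both of these calls were lost under median-ratio scaling (adjusted p = 0.156 for Ftl1 and 0.0562 for Slc40a1), without the filter and in a fit of only these 2 groups, and in 3 of 6 fits that left out a library. No gene of the 9 was called without MMA+FA replicate 3 or without FA replicate 1, Ftl1 alone was called without MMA+FA replicate 2, and Slc40a1 alone without FA replicate 3. Of all genes, 431, 357, 362 and 505 were called in these fits, in that order. Under median-ratio scaling 2 of 9 were called against MMA (12.6% of all genes) and 0 of 9 against FA (5.9%). Without overlap, 2 of 9 were lower than in FA cells, Ftl1 and Slc40a1 (23.7% of all genes), and 1 was higher, Fth1 (5.07%). Fth1 lay above every FA library in all 3 MMA+FA libraries, with a change of 0.08 (SE 0.05, adjusted p = 0.299). Tfrc had a difference of 0.26 (SE 0.12, adjusted p = 0.163), and of 0.39 without MMA+FA replicate 1 (adjusted p = 0.0438). Steap3 had a difference of 0.18 (SE 0.09, adjusted p = 0.216).

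The interaction, which asks whether the effect of both agents differed from the sum of their single effects, called none of the 9 genes in limma, beside 2.41% of all genes, and none under median-ratio scaling, beside 2.66%. At an unadjusted p under 0.05 there were 4 of 9 under median-ratio scaling, beside 2224 of 12263 genes. On the deposited TPM there were 3 of 9, Slc11a2, Tfrc and Fth1, beside 2163 of 12263 genes. Slc11a2 came nearest, with 0.26 (SE 0.07, adjusted p = 0.0685): each agent alone lowered it about as far as both did. Tfrc had 0.44 (SE 0.16, adjusted p = 0.186), Fth1 0.18 (SE 0.07, adjusted p = 0.195) and Slc40a1 -0.26 (SE 0.12, adjusted p = 0.316). Ftl1 had -0.03, with a 95% interval from -0.20 to 0.13 (adjusted p = 0.847).

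Across libraries some of the 9 genes ran together and others did not. Pearson's r of log2(TPM + 1) over the 12 libraries was 0.87 between Ftl1 and Slc40a1, -0.89 between Ftl1 and Steap3, and -0.87 between Steap3 and Slc40a1. Fth1 followed Ftl1 less closely (r = 0.62), and Ftl1 and Tfrc had an r of 0.17. These values describe 12 libraries of 4 groups and largely carry the group means, and they share each library's TPM total. By the same measure, the genes most like Ftl1 among 9538 with a symbol and a mean of at least 5 TPM were Stbd1 (r = 0.971), Ifi27l2a (0.970), Csnk2a2 (0.966), Nup50 (0.964) and Kcnq5 (0.963). Those most like Fth1 were RT1-DMa (0.970), Ptar1 (0.896), Spata6 (0.891), Pfdn2 (0.891) and Timmdc1 (0.888). Those most like Tfrc were Ago3 (0.936), Ube4a (0.930), Cnot6 (0.916), ST7 (0.831) and Dnaja2 (0.831).

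**Figure D4:**
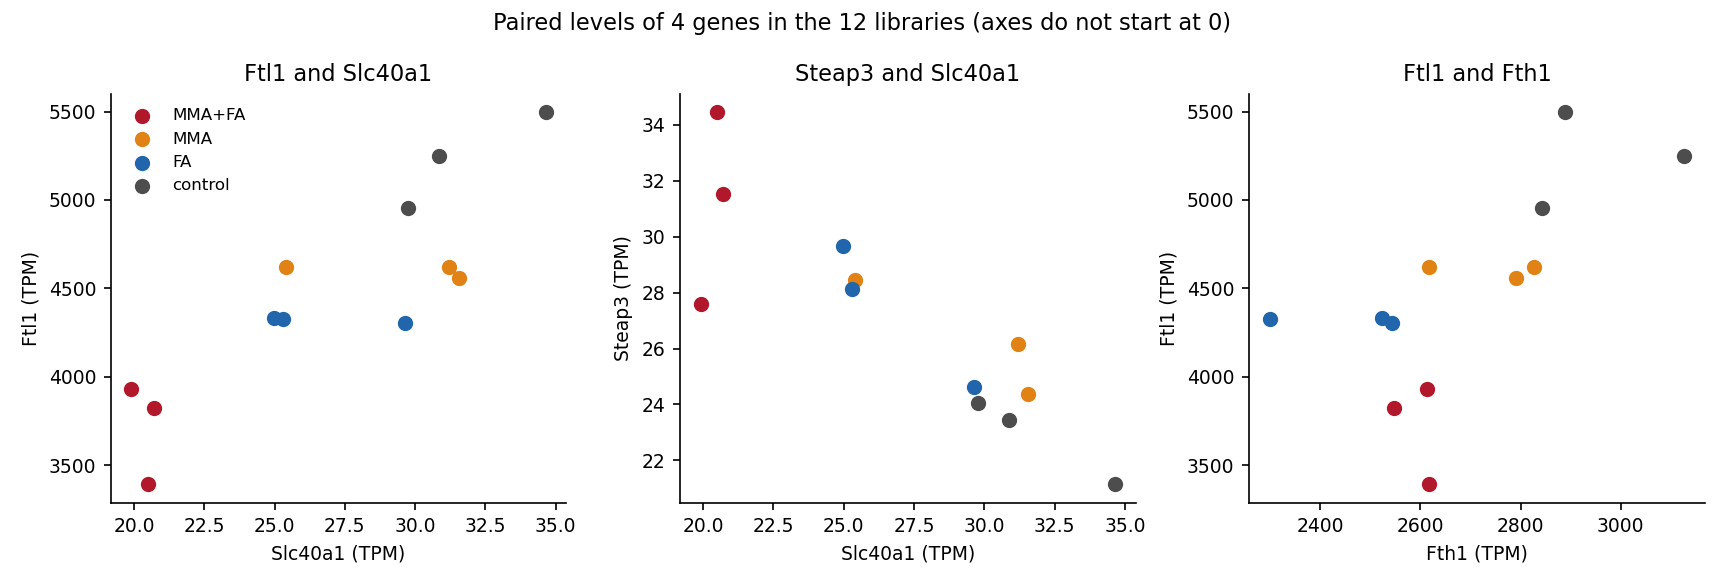
TPM of Ftl1 against Slc40a1, of Steap3 against Slc40a1 and of Ftl1 against Fth1, 1 point per library, coloured by MMA+FA, MMA, FA and control. The axes do not start at 0. MMA+FA libraries lie at the low end of Slc40a1 and Ftl1. In Steap3, MMA+FA replicates 1 and 3 are the highest, and replicate 2 lies among the FA and MMA libraries. FA replicate 2 and MMA replicate 3 stand apart from their groups in Slc40a1.

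The wider pathway was read from 7 lists with 109 genes beside the 9, of which 92 were tested. With MMA+FA against control 39 of the 92 fell and 6 rose, 42.4% and 6.52% of them, beside 32.6% and 6.67% of all genes. Their median change was -0.10, beside -0.12 for all genes. Under median-ratio scaling 16 fell and 16 rose, 17.4% each, where 13.9% of all genes were called lower and 15.5% higher. With MMA 21 fell and 3 rose, 22.8% and 3.26%, beside 16.5% and 3.85% of all genes. With FA 12 fell and 1 rose, 13.04% and 1.09%, beside 8.7% and 3.67% of all genes. Under median-ratio scaling 3 of the 92 fell and 7 rose with MMA, beside 847 lower and 1001 higher of all genes. The balance of all genes thus turned as well, from 2029 lower and 472 higher. With FA 4 fell and 1 rose under the scaling, beside 476 lower and 709 higher of all genes. Against MMA alone 12 fell and 3 rose in MMA+FA cells (13.04% and 3.26%, beside 9.53% and 4.19% of all genes), and against FA alone 13 fell and 3 rose (14.1% and 3.26%, beside 8.9% and 1.6%). Under median-ratio scaling 7 fell and 3 rose against MMA alone, beside 759 lower and 784 higher of all genes. Against FA alone 2 fell and 6 rose under it, beside 302 lower and 421 higher of all genes. That balance of all genes had also turned, from 1092 lower and 196 higher on the deposited TPM. Single libraries moved these counts: with FA the sum of both directions was 22 without FA replicate 2 and 2 without FA replicate 1, with MMA it was 6 without control replicate 3, and against FA alone it was 1 without MMA+FA replicate 3. In those fits 2571, 328, 1311 and 431 of all genes were called, in that order.

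The other genes of iron uptake, some of them from the transferrin route, were 14 listed and 9 tested. With MMA+FA 5 fell and none rose, with a median of -0.22, beside 32.6% lower and 6.67% higher among all genes. Under median-ratio scaling 3 were lower and none higher, beside 13.9% and 15.5% of all genes. Slc39a14, a transporter of iron not bound to transferrin, measured 10.01, 9.71 and 9.14 TPM in MMA+FA libraries, 11.1, 10.4 and 10.5 TPM in MMA libraries and 11.02, 11.34 and 11.24 TPM in FA libraries, against 13.3, 13.3 and 14.5 TPM in control libraries. It was the uptake gene with the smallest p against control in each treated group. It fell by 0.47 with MMA+FA (adjusted p = 0.000127), by 0.34 with MMA (adjusted p = 0.00348) and by 0.27 with FA (adjusted p = 0.0142), and the FA call was lost without FA replicate 1 and without control replicate 3. The metalloreductase genes Steap2 (-0.47) and Steap1 (-0.35), which belong to the family of Steap3, and the ferric reductase gene Cybrd1 (-0.36) fell with MMA+FA, with adjusted p-values of 0.00105, 0.0155 and 0.00108. Steap2 and Steap3 thus moved in opposite directions. Exoc6, part of the exocyst that recycles the transferrin receptor, fell by 0.22 (adjusted p = 0.0121). The calls of Steap1 and Exoc6 were lost under median-ratio scaling. Steap2 also fell against MMA alone, by 0.41 (adjusted p = 0.00586).

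Export and its hormonal control had 7 listed genes and 2 tested, of which 1 fell with MMA+FA, beside 32.6% of all genes. This was Cp, the ferroxidase ceruloplasmin that works with ferroportin, at 9.65, 9.06 and 8.88 TPM in MMA+FA libraries, 11.4, 11.7 and 9.70 TPM in MMA libraries and 11.3, 12.2 and 10.7 TPM in FA libraries, against 12.8, 12.4 and 14.6 TPM in control libraries. Cp fell by 0.48 with MMA+FA (adjusted p = 0.000809), as Slc40a1 did. Its calls with MMA (-0.26, adjusted p = 0.0396) and against FA alone (-0.28, adjusted p = 0.0452) were lost in 9 and 11 of 15 alternatives. The other ferroxidase, Heph, had 46.5 TPM in MMA+FA cells and 49.3 TPM in control cells and did not pass.

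Among 7 genes of iron chaperones and of the control of the regulatory proteins, 6 were tested and 3 fell with MMA+FA. Of all genes, 32.6% were called lower in this comparison. These were Pcbp2 (-0.22, adjusted p = 0.00044), a carrier of iron to ferritin, Fbxl5 (-0.22, adjusted p = 0.00562), the ligase subunit that marks iron regulatory protein 2 for breakdown, and Herc2 (-0.22, adjusted p = 0.00989), which marks Fbxl5 and Ncoa4. All 3 calls were lost under median-ratio scaling. Against FA alone the cluster carrier Bola2 rose by 0.27 (adjusted p = 0.0257), a call lost in 7 of 15 alternatives. Of the other messengers known to carry an iron-responsive element, 4 of 6 were tested: Cdc42bpa fell by 0.40 (adjusted p = 0.000429), App by 0.14 (adjusted p = 0.0171, lost under median-ratio scaling), and Cdc14a rose by 0.25 (adjusted p = 0.0123, lost without control replicate 2).

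Mitochondrial iron and iron-sulfur cluster genes had 33 of 34 tested, of which 11 fell and 1 rose with MMA+FA, with a median of -0.09. The share that fell is near the 32.6% of all genes called lower. Under median-ratio scaling 3 were lower and 3 higher, beside 13.9% and 15.5% of all genes. Nfu1, a late carrier of clusters, fell by 0.43 (adjusted p = 0.000446), Hspa9, the chaperone of cluster transfer, by 0.40 (adjusted p = 0.000769), and Ciapin1, of the cytosolic assembly, by 0.31 (adjusted p = 0.000658). Slc25a37, the mitochondrial iron importer mitoferrin 1, fell by 0.32 (adjusted p = 0.00615), a call that was lost under median-ratio scaling. Nfu1 also fell against MMA alone, by 0.33 (adjusted p = 0.00575), and so did Isca2, by 0.30 (adjusted p = 0.00667). Isca2 rose by 0.21 with MMA against control (adjusted p = 0.0314, lost in 6 of 15 alternatives).

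Heme genes had 19 of 21 tested, of which 10 fell and 3 rose with MMA+FA, with a median of -0.15, beside 32.6% lower and 6.67% higher among all genes. Under median-ratio scaling the balance turned, with 3 lower and 6 higher, as it did among all genes (13.9% lower and 15.5% higher). Hmox1 encodes heme oxygenase 1, which frees iron from heme, and measured 192, 214 and 173 TPM in MMA+FA libraries, 263, 262 and 243 TPM in MMA libraries and 268, 269 and 287 TPM in FA libraries, against 309, 285 and 322 TPM in control libraries. MMA+FA libraries lay below all others. Hmox1 fell by 0.66 with MMA+FA (SE 0.07, adjusted p = 6.28e-05), by 0.41 against MMA alone (SE 0.07, adjusted p = 0.00251) and by 0.51 against FA alone (SE 0.07, adjusted p = 0.00322), the last lost in a fit of only these 2 groups. The heme exporter gene Flvcr1 fell with MMA+FA (-0.48, adjusted p = 0.00031), with MMA (-0.37, adjusted p = 0.0043) and with FA (-0.37, adjusted p = 0.00954). The related Flvcr2 rose instead, at 21.1, 19.2 and 19.6 TPM in MMA+FA libraries against 15.4, 16.6 and 16.1 TPM in control libraries (0.30, adjusted p = 0.00239), and by 0.44 against MMA alone (adjusted p = 0.000635). The heme transporter gene Slc48a1 fell by 0.37 with MMA+FA (adjusted p = 0.000776). Ppox, an enzyme of heme synthesis, fell by 0.34 against MMA alone (adjusted p = 0.00344). It was the 1 gene of the 92 called in the interaction (-0.39, adjusted p = 0.038), a call lost in 12 of 20 alternatives.

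Genes tied to ferroptosis, the iron-dependent death of cells by lipid peroxidation, had 19 of 21 tested, of which 7 fell and 1 rose with MMA+FA, with a median of -0.07. The share that fell is near the 32.6% of all genes called lower. Under median-ratio scaling 5 were lower and 4 higher, beside 13.9% and 15.5% of all genes. Ptgs2, a cyclooxygenase gene often used as a marker of ferroptosis, rose with MMA+FA (0.44, adjusted p = 0.000818), with MMA (0.42, adjusted p = 0.0041) and with FA (0.41, adjusted p = 0.00954). It measured 72.6, 73.7 and 72.7 TPM in MMA+FA libraries, 72.3, 75.2 and 68.1 TPM in MMA libraries and 68.4, 78.7 and 67.5 TPM in FA libraries, against 47.4, 55.9 and 57.4 TPM in control libraries. The 3 treated groups overlapped with each other and lay above control. Slc7a11 (-0.45, adjusted p = 0.000673) and Slc3a2 (-0.37, adjusted p = 0.000323), the chains of the cystine importer, fell with MMA+FA. So did Nfe2l2 (-0.44, adjusted p = 0.000334), a regulator of ferritin and Hmox1 transcription, and Acsl4 (-0.51, adjusted p = 0.00274), which loads membranes with oxidisable lipids. These 4 calls held under all 15 alternatives.

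**Figure D5:**
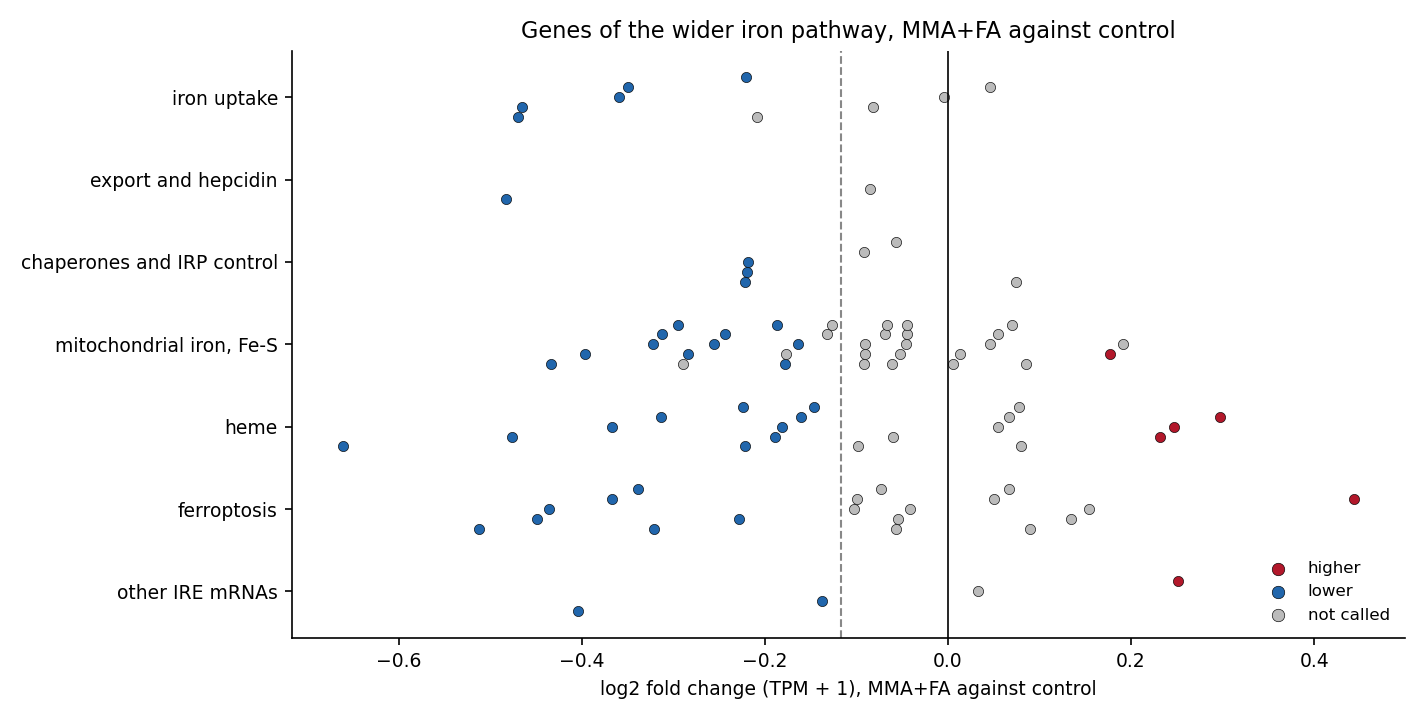
Fold change on the log2(TPM + 1) scale of MMA+FA against control (x axis) for 92 tested genes in 7 lists of the wider iron pathway (rows, points spread vertically for view). Colours mark genes called higher, called lower and not called, the solid line is 0 and the dashed line the median of all tested genes. Most called points lie left of the dashed line, Hmox1 is the leftmost and Ptgs2 the rightmost.

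The libraries within a group were alike, with Pearson's r across genes between 0.987 and 0.992. Mitochondrially encoded genes held 10.1% to 11.1% of TPM in MMA+FA libraries and 10.3% to 11.4% in MMA libraries, 8.78% to 10.4% in FA libraries and 9.34% to 9.87% in control libraries. With TPM recomputed without those genes, 5 of the 9 genes were still called with MMA+FA against control, 3 with MMA and 3 with FA. Of the 12250 genes tested that way, 4492, 2154 and 1439 were called, in the same order. Of 10 cardiomyocyte markers 3 were abundant enough to test, and Myh6, Myh7, Actc1 and Ryr2, which define working heart muscle, averaged 0.01 to 0.115 TPM. The summed cardiomyocyte markers, mostly Tnnt2, reached 84.1 to 104 TPM in MMA+FA libraries, 38.2 to 40.7 TPM in MMA libraries and 61.6 to 64.2 TPM in FA libraries, against 32.2 to 38.0 TPM in control libraries. The summed myoblast markers, mostly Myod1, reached 52.3 to 61.2 TPM in MMA+FA libraries, 78.1 to 82.8 TPM in MMA libraries and 73.8 to 92.3 TPM in FA libraries, against 89.1 to 98.4 TPM in control libraries. With MMA+FA against control, 1 of 3 tested cardiomyocyte markers was called higher and 0 lower (median change 0.03). Of 4 tested myoblast markers, 1 was called higher and 1 lower (median 0.04). Of all genes, 6.67% were called higher and 32.6% lower. Each sum thus describes mainly its top gene, not its list. MMA+FA libraries were at the extreme of both sums, as they were for Ftl1, Slc40a1 and the mean of Steap3, and the part of these markers in those results was not tested. Summed fibroblast markers ranged from 3697 to 4407 TPM in MMA+FA libraries, from 3712 to 4209 TPM in MMA libraries and from 4338 to 5097 TPM in FA libraries, against 3600 to 3899.8 TPM in control libraries. Macrophages and erythroid cells are rich in iron genes. Of their markers, 1 of 7 (Cd14, at about 10.4 TPM) and 0 of 6 were abundant enough to test. Adgre1, Cd163 and Alas2 were listed at 0, and Ptprc averaged 0.0217 TPM. The 4 endothelial markers summed to at most 0.13 TPM in MMA+FA libraries and 0.3 TPM in control libraries.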

How the data were processed

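The deposited table gives each gene's TPM in 12 libraries. The authors' tools were fastp and HISAT2, and the build was mRatBN7.2, per the submitters' processing notes. RSEM is named in the title of the deposited table alone. Libraries were stranded and polyA-selected from TRIzol RNA, per the labels' protocols. The sources used here give no tool versions, annotation release or strand setting. TPM keeps no depth, so the precision of a value is read from the spread between libraries.

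Genes averaging 1 TPM or more were tested with limma 3.58.1 (R 4.3.3) on log2(TPM + 1), with 1 mean per group over all 12 libraries, a mean-variance trend and Benjamini-Hochberg adjustment over 12263 genes, called at an adjusted p under 0.05. The fit was tested on simulated data. The main fit did not treat libraries with the same replicate number as pairs. Alternatives were median-ratio scaling, TPM without mitochondrially encoded genes, a pseudocount of 0.1, no filter, no trend, a replicate block, only the groups compared, leaving out each library, and summed Ftl1 loci. Summing all ferritin loci was added after seeing the data. Promoter sequences came from RefSeq (GRCr8).

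All 9 genes are named, then at most 6 called genes per list and comparison by smallest p, and for Fth1, Ftl1 and Tfrc the 5 genes with the highest r. The genes and lists were chosen with earlier results of these data known.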

Additional observations from a re-analysis of the deposited data

How the results depend on the processing

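The alternatives counted for each gene include the summed Ftl1 loci and the summed ferritin loci. These fits replaced the values of Ftl1, Fth1 and Ncoa4 alone, so for other genes they could hardly change a result. Over 1350 recomputed values of single genes, those fits among them, 1208 kept their direction and their side of the threshold. Of the rest, 132 lost a call, 6 gained one and 4 changed sign. The sign changes were Aco1 with MMA+FA against control under median-ratio scaling (0.0054), Tfrc in that comparison without MMA+FA replicate 1 (0.0083), and Ftl1 in the interaction without MMA+FA replicate 3 (0.0296) and without control replicate 2 (0.0041). Leaving out single libraries gave -0.266 to 0.0083 for Tfrc and -0.0772 to 0.0296 for Ftl1. None of these 3 results had passed the test.

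Median-ratio scaling left 1 of the 9 genes called with MMA, 3 with MMA+FA and 0 for MMA+FA against FA, and 10, 5, 8 and 2 genes of the wider pathway with MMA, with FA, for MMA+FA against FA and in the interaction, where deposited TPM gave 24, 13, 16 and 1. It also left 723 of 1288 genes called for MMA+FA against FA. Without the filter on low values, where more genes share the adjustment, 928 of 1517 genes were called with FA, 699 against FA and 181 of 295 in the interaction, with 0 of the 9 genes against FA and 13, 7, 8 and 0 pathway genes with MMA, with FA, against FA and in the interaction. A fit of only the groups compared, which has fewer libraries, called 604 genes with FA and 23 against FA, 0 of the 9 genes against FA, and 8 and 0 pathway genes. Without the mean-variance trend 0 pathway genes were called in the interaction, and the cause was not tested.

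Leaving out 1 library gave 1173 to 1898 genes called with MMA, 214 to 2571 with FA, 868 to 1696 for MMA+FA against MMA, 357 to 2010 against FA and 85 to 496 in the interaction. Of the 9 genes it gave 1 to 2 with MMA, 1 to 6 with FA and 0 to 3 against FA. Of the pathway genes it gave 6 to 15, 2 to 22, 9 to 19 (against MMA), 1 to 19 (against FA) and 0 to 4 (interaction). The FA and interaction counts were highest without FA replicate 2.

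Same-numbered libraries of different groups had correlations of their deviations from -0.124 to 0.107 in 18 pairs, against -0.203 to 0.141 in 36 pairs with different numbers. These values showed no sign of a pairing by number, but they cannot exclude a weak one. With a replicate block 2198 genes were called for MMA, 1300.0 for FA and 4591 for the combination, and of the 9 genes 2, 3 and 5. Aco1 with MMA had an adjusted p of 0.0506 in this replicate-block fit, where the main fit gave 0.0312. In the same block fit 10 pathway genes were called for MMA+FA against FA. Depth is unknown and each group rests on 3 libraries.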

Other observations

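Several genes of systemic iron control were near 0 in these cells and were not tested. Hamp, the hormone hepcidin that removes ferroportin from the cell surface, averaged 0.473 TPM over the 12 libraries. Tfr2 and Hfe, sensors of transferrin iron in liver, averaged 0.446 and 0.2075 TPM. Mitochondrial ferritin (Ftmt), the ferroxidase Hephl1 and Alas2, an erythroid enzyme of heme synthesis, were listed at 0 in all 12 libraries. Tf, the iron carrier transferrin, averaged 34.3 TPM and Heph 48.7 TPM, and neither was called with MMA+FA against control. The ratio of Steap3 to Slc40a1 TPM was 1.53 ± 0.147 in MMA+FA cells, 0.911 ± 0.185 in MMA cells and 1.04 ± 0.188 in FA cells, against 0.726 ± 0.103 in control cells (SD, n = 3 each). Its MMA+FA libraries lay above all 9 others.

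Blvra, which turns biliverdin into bilirubin after Hmox1 has opened the heme ring, rose by 0.26 with MMA against control (adjusted p = 0.0304), a call lost in 6 of 15 alternatives. A ferritin heavy chain copy, Fth1-ps5, was lower than in control with MMA+FA (-0.32, adjusted p = 0.0225), MMA (-0.33, adjusted p = 0.0329) and FA (-0.40, adjusted p = 0.0245), and its reads could belong to Fth1.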
